A study of Papio anubis and Macaca mulatta with 6 samples.

Results

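The 10 genes described here encode parts of the contractile apparatus of smooth muscle: ACTA2, ACTG2, MYH11, MYLK, TAGLN, CNN1, TPM1, TPM2, LMOD1 and DES. They were taken by gene symbol, and each symbol was found once among the 34178 annotated genes of the baboon libraries and the 21356 of the rhesus libraries. The libraries held single testis cells of 2 olive baboons and 2 rhesus macaques, which were immature and untreated, and whose testes had been recovered at necropsy. Of the 6 droplet-based RNA sequencing libraries, 1A and 1B came from baboon 1, 2A and 2B came from rhesus 2, and baboon 2 and rhesus 1 gave 1 library each. Each species thus had 2 animals as replicates, and the species were analysed apart because their gene models differ. Baboon 2 was prepared with version 3 of the chemistry and all other libraries with version 2, so that animal and chemistry cannot be told apart in baboon. The sources used here exchange the ages between the species, and no age is assigned. In either version the 2 animals of a species differed in age. A newborn is paired with an older animal in baboon or in rhesus, so that animal and age cannot be told apart. Before the second digestion the tissue was washed to remove interstitial cells, which limits what the libraries can say of how common stromal cells are in the testis.

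Smooth muscle contracts when the myosin heavy chain MYH11 pulls on filaments of the actins ACTA2 and ACTG2, after the kinase MYLK has phosphorylated the myosin light chain. Tropomyosins, calponin (CNN1) and transgelin (TAGLN) lie along or bundle the actin filaments, leiomodin (LMOD1) nucleates them, and desmin (DES) forms intermediate filaments. Many of these genes are switched on together by serum response factor (SRF) and its partner myocardin (MYOCD), which act at a short DNA element called the CArG box. In the testis the genes are known from vascular smooth muscle and from the peritubular myoid cells that surround the tubules, and pericytes, the mural cells of capillaries, carry them to differing degrees. Sertoli cells, the epithelial cells inside the tubules, are not smooth muscle and served as the comparison.

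The stretch upstream of the start site is shown for the actins ACTG2 and ACTA2 because it holds the letters of that element or runs close to it. The 250 bases before the annotated start were read from the rhesus build Mmul_10, on the strand of the gene and from 5′ to 3′. Capitals mark exact CArG boxes in ACTG2, and in ACTA2 they mark runs that differ from the box by 1 letter.
ACTG2 promoter, chr13:34939372-34939621, minus strand: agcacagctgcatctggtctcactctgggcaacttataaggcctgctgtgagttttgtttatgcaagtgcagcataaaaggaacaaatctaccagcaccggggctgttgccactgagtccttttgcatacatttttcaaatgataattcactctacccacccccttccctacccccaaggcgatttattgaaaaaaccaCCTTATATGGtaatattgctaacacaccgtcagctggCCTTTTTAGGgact
ACTA2 promoter, chr9:89217326-89217575, minus strand: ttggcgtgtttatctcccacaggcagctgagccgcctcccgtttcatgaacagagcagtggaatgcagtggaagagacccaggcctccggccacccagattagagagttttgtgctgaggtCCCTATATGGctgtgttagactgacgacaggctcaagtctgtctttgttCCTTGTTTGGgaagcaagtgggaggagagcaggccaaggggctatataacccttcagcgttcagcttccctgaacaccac
The boxes of ACTG2 lay 51 and 14 bases before the start site. An exact box on either strand was found in 217 of 20774 promoters of protein-coding genes, or 1.04%. When runs with 1 differing letter were counted too, 15.7% of all promoters held a match. In 6 of the 10 members (MYH11, CNN1, DES, MYLK, LMOD1 and TPM2) neither was found. A match says only that the letters are there. The genes themselves lay at chr9:89200106-89217325 (ACTA2), chr13:34911926-34939371 (ACTG2) and chr20:15284858-15437191 (MYH11) of Mmul_10.

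Cells were called and clustered with the 10 members left out of the genes used, and clusters were named from marker genes. Within the clusters named stroma-like, pericyte-like or smooth muscle-like, a cell counted as a pericyte when it held at least 2 UMIs, or unique transcripts, summed over RGS5, HIGD1B, KCNJ8 and ABCC9. All remaining cells of these clusters are called other stromal cells, and the Sertoli-like clusters supplied the Sertoli cells. In baboon there were 118 pericytes (67 in baboon 1 and 51 in baboon 2), 3609 other stromal cells and 17426 Sertoli cells. In rhesus there were 261 pericytes (20 in rhesus 1 and 241 in rhesus 2), 15599 other stromal cells and 8020 Sertoli cells. Of the 20 pericytes of rhesus 1, 1 lay in the smooth muscle-like cluster and held most of their member UMIs. Its part is stated for most genes, but levels without it are not given for MYH11 and TPM2. In rhesus 2, 228 of the 241 pericytes lay outside that cluster. The gene levels of rhesus 2 include the remaining cells, and its summed level without them is given further below. Levels are UMIs of a gene per 10000 UMIs of the class, computed per animal.

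The label of pericytes was set beside marker lists of other cells, and pericyte markers outside the gate are not given apart. Stroma markers summed to 17.5 and 35.6 in baboon pericytes against 106 and 136 in other stromal cells. In rhesus they summed to 51.1 and 23.8 against 129 and 86.6. Sertoli markers summed to 18.5 and 9.51 in baboon pericytes against 24.8 and 8.87 in other stromal cells. The rhesus sums were 15.8 and 5.36 against 13.6 and 6.36. Endothelial markers were low but higher in pericytes than in other stromal cells: 10 such genes together had levels of 1.84 and 1.72 in the pericytes of the baboons, where 3 and 4 of the 10 were detected, against 0.205 and 0.370 in other stromal cells. The corresponding rhesus levels were 2.90 and 2.15, with 2 and 6 of 10 detected, against 0.470 and 0.625. Leydig markers, of which 5 of 8 were found in the baboon files, summed to 3.60 and 2.39 in baboon pericytes against 0.635 and 0.566 in other stromal cells. In rhesus they summed to 2.63 and 2.75 against 3.75 and 1.19. The part of these lists in the results was not tested. Smooth muscle markers other than the members summed to 33.6 and 34.6 in baboon pericytes and to 10.7 and 9.46 in other stromal cells, and Sertoli cells had 8.56 and 10.3, so the list is not particular to muscle here. In rhesus the sums were 11.3 and 8.98 in pericytes, 7.87 and 5.43 in other stromal cells and 6.53 and 4.81 in Sertoli cells. The 6 libraries held 16875294 to 49803025 UMIs over all barcodes and 5581 to 11141 cells each, and libraries of one species shared at most 123 cell barcodes. Droplets too small to be cells held the 10 members at a summed level of 3.51 to 5.95, which is the make-up of free RNA. The part of a cell's UMIs that came from free RNA was not estimated. A cell level near that of free RNA is thus not shown to come from it. ACTA2 of baboon Sertoli cells, at 0.00577 and 0.00343, lay below its level in free RNA, which was 0.0722 to 1.72.

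**Figure D1:**
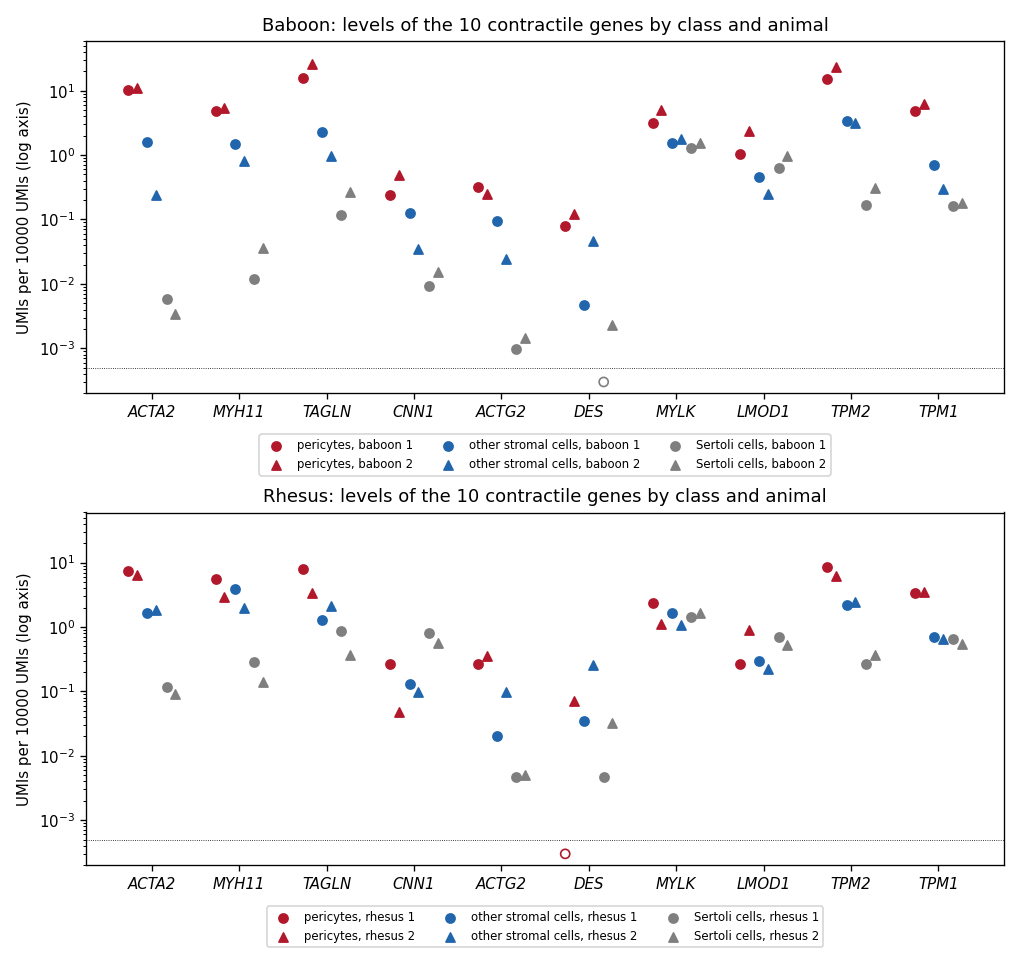
UMIs per 10000 UMIs (log axis) of each of the 10 genes in pericytes, other stromal cells and Sertoli cells of each species; circles are animal 1, triangles animal 2, and open symbols below the dotted line are 0 UMIs. The pericytes as gated stand highest for ACTA2, ACTG2, MYH11, TAGLN, TPM1 and TPM2 in all 4 animals. For ACTG2 and TPM1 of rhesus 1 this rests on 1 smooth muscle-like cell, without which ACTA2 lies close to other stromal cells. CNN1 of rhesus stands highest in Sertoli cells.

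ACTA2, the actin most used to mark smooth muscle, had levels of 10.4 and 11.1 in the pericytes of baboon 1 and baboon 2. In other stromal cells it had 1.57 and 0.240, and in Sertoli cells 0.00577 and 0.00343. The classes did not overlap, but the other stromal cells of the 2 baboons lay far apart. ACTA2 was 3.34 ± 0.83 higher in pericytes than in other stromal cells on the log2 scale (SE, n = 2 animals), which did not pass the test across all genes (adjusted p = 0.175, edgeR's quasi-likelihood test). With the animal as a block in the fit it passed (adjusted p = 0.00486). Against Sertoli cells the difference was 11.06 ± 1.17 and passed without the block (adjusted p = 0.00335). In rhesus, ACTA2 had 7.37 and 6.32 in pericytes, 1.63 and 1.86 in other stromal cells, and 0.118 and 0.0897 in Sertoli cells. The level in rhesus 1 rested on 1 smooth muscle-like cell, and the other 19 pericytes of that animal had 1.69, close to its other stromal cells. The level in rhesus 2 also includes smooth muscle-like cells, and is not given without them. Over the main fit and its alternatives, the log2 difference of rhesus pericytes over other stromal cells ran from 0.35 to 2.55. The difference between pericytes and other stromal cells was 1.64 ± 0.42 (adjusted p = 0.169, and 0.000234 with the block), and that between pericytes and Sertoli cells was 5.72 ± 0.49 (adjusted p = 0.000290).

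ACTG2, the enteric smooth muscle actin, was sparse. Its level in pericytes was 0.320 and 0.245 in the baboons and 0.263 and 0.359 in the rhesus macaques. Other stromal cells had 0.0955 and 0.0245 in baboon and 0.0202 and 0.0994 in rhesus, so all 4 animals had a higher level in pericytes as gated. The ACTG2 UMI of the rhesus 1 pericytes came from the smooth muscle-like cell, and the other 19 held 0. Neither species passed the test between pericytes and other stromal cells (adjusted p = 0.457 in baboon and 0.436 in rhesus), and rhesus passed with the block (adjusted p = 0.0479). Against Sertoli cells ACTG2 was higher by 7.67 ± 1.10 in baboon and by 5.90 ± 0.98 in rhesus, and both passed (adjusted p = 0.00978 and 0.00582). The Sertoli levels behind these folds were at most 0.00505 in any animal. The rhesus pericyte-like cluster by itself held 0 ACTG2 UMIs in 367 cells, which allows a level of up to 0.0505, and the call against Sertoli cells was lost when pericytes were that cluster.

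MYH11, the motor protein itself, was spread more widely over the stroma than ACTA2. In baboon it had 4.89 and 5.40 in pericytes, 1.47 and 0.801 in other stromal cells, and 0.0119 and 0.0361 in Sertoli cells. In rhesus the corresponding levels were 5.53 and 2.90, 3.85 and 1.99, and 0.288 and 0.139. The pericytes of rhesus 2 thus lay below the other stromal cells of rhesus 1. The difference between pericytes and other stromal cells was 1.96 ± 0.52 in baboon (adjusted p = 0.213, and 0.0451 with the block) and 0.06 ± 0.57 in rhesus (adjusted p = 1.00). The rhesus levels of pericytes include smooth muscle-like cells. Over the main fit and its alternatives this rhesus difference ran from -1.17 to 0.49. It was -0.64 with the smooth muscle-like cluster left out of both classes, so no order of these 2 classes is read in rhesus. MYH11 was higher than in Sertoli cells in pericytes and in other stromal cells of both species, with differences of 7.68 and 5.72 in baboon and 3.82 and 3.76 in rhesus, all of which passed.

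MYLK, which switches the motor on, had a level of 0.775 to 1.24 in the free RNA of baboon and 1.06 to 1.14 in that of rhesus. The part of free RNA in its cell levels was not estimated. Pericytes had 3.12 and 4.97, other stromal cells 1.54 and 1.75, and Sertoli cells 1.29 and 1.51 in baboon. Rhesus levels were 2.37 and 1.10, 1.66 and 1.06, and 1.43 and 1.65, and these overlapped between the classes, with the pericytes and other stromal cells of rhesus 2 at the level of free RNA. Without its smooth muscle-like cell rhesus 1 had MYLK at 1.13 in pericytes, near free RNA. The 19 cells held 35483 UMIs of all genes, too few to place this level against its other stromal cells. In baboon MYLK passed against Sertoli cells (1.43 ± 0.29, adjusted p = 0.0343) and, with the block, against other stromal cells (1.08 ± 0.29 without and adjusted p = 0.0218 with it). None of the 3 rhesus comparisons of MYLK passed, the adjusted p-values being 0.939, 0.756 and 0.900 without the block and 0.960, 0.754 and 0.731 with it.

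TAGLN, which bundles actin, was high in baboon pericytes, at 15.8 and 25.7, against 2.30 and 0.955 in other stromal cells and 0.115 and 0.265 in Sertoli cells. The gap to other stromal cells was 3.43 ± 0.59 (adjusted p = 0.0634, and 0.00519 with the block). In rhesus pericytes TAGLN had 7.90 and 3.38, against 1.29 and 2.12 in other stromal cells and 0.871 and 0.374 in Sertoli cells. The other 19 pericytes of rhesus 1 had 1.69. The gap of 1.27 ± 0.57 did not pass (adjusted p = 0.589, and 0.0289 with the block), and it ran from 0.19 to 1.83 over the main fit and its alternatives. Against Sertoli cells pericytes were higher by 6.70 ± 0.68 in baboon and 2.65 ± 0.59 in rhesus (adjusted p = 0.00310 and 0.0256).

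CNN1, calponin, which damps the motor, took opposite positions in the species. In baboon pericytes it had 0.240 and 0.491, in other stromal cells 0.124 and 0.0343, and in Sertoli cells 0.00930 and 0.0152. In rhesus the Sertoli cells had the most, at 0.799 and 0.567, against 0.132 and 0.0973 in other stromal cells. Rhesus pericytes had 0.263 and 0.0479, from 1 and 2 CNN1 UMIs, the former in the smooth muscle-like cell. The ratio of pericytes to Sertoli cells in rhesus was 0.0957, with a 95% counting interval of 0.0197 to 0.280, and the fitted log2 difference of -3.48 passed (adjusted p = 0.0280). In baboon pericytes CNN1 was 4.83 ± 0.91 higher than in Sertoli cells (adjusted p = 0.0284). The free RNA of the rhesus libraries held CNN1 at 0.506, 0.362 and 0.349, below the level of Sertoli cells in both animals and above that of pericytes in both.

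The tropomyosins wind along actin and set where myosin can bind. TPM2 had 15.1 and 23.3 in baboon pericytes, 3.42 and 3.16 in other stromal cells, and 0.165 and 0.307 in Sertoli cells. In rhesus it had 8.42 and 6.13, 2.22 and 2.48, and 0.271 and 0.365. The classes as gated kept this order without overlap in both species, and the rhesus levels of pericytes are not given without smooth muscle-like cells. TPM2 differed between pericytes and other stromal cells by 2.32 ± 0.36 in baboon (adjusted p = 0.0507, and 0.000960 with the block) and by 1.27 ± 0.37 in rhesus (adjusted p = 0.259, and 0.0203 with the block). TPM1 had 4.89 and 6.14 in baboon pericytes and 3.42 and 3.50 in rhesus pericytes, but 0.564 in the 19 pericytes of rhesus 1 without its smooth muscle-like cell. Other stromal cells had 0.711 and 0.299 in baboon and 0.702 and 0.649 in rhesus, where Sertoli cells had nearly as much (0.647 and 0.542). Free RNA held TPM1 at 0.525 to 0.694 in the rhesus libraries, and those 19 pericytes held 35483 UMIs of all genes. Without that cell the TPM1 level of rhesus 1 thus lay within the range of free RNA, and no order of the classes is read from it. TPM1 was the member that passed between pericytes and other stromal cells in baboon (3.23 ± 0.47, adjusted p = 0.0472). In rhesus the difference was 2.07 ± 0.41 (adjusted p = 0.0673). With the block it was 2.18 ± 0.35 (adjusted p = 4.98e-08), a p-value whose size 2 animals cannot carry.

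The remaining members were LMOD1 and DES. LMOD1, like CNN1 in rhesus, was higher in Sertoli cells than in other stromal cells. LMOD1 had 1.04 and 2.33 in baboon pericytes, 0.463 and 0.250 in other stromal cells, and 0.621 and 0.972 in Sertoli cells, so Sertoli cells lay above the other stromal cells. The same order held between these classes in rhesus, with 0.298 and 0.220 in other stromal cells and 0.697 and 0.524 in Sertoli cells. Free RNA held LMOD1 at 0.111 to 0.436 in baboon and at 0.181 to 0.379 in rhesus, so the levels of other stromal cells lay near or within it. Other stromal cells minus Sertoli cells gave log2 differences of -1.02 in baboon and -1.22 in rhesus, which did not pass (adjusted p = 0.195 and 0.0989) and passed with the block (adjusted p = 0.0424 and 0.000192). Rhesus pericytes had LMOD1 at 0.263 and 0.910, the former from the smooth muscle-like cell alone. Between pericytes and other stromal cells LMOD1 did not pass in either species (adjusted p = 0.168 in baboon and 0.499 in rhesus) and was higher in pericytes with the block (adjusted p = 0.0426 and 0.00233). DES, the muscle intermediate filament, gave only 3 UMIs in the pericytes of each species, and no DES UMI was found in those of rhesus 1, which allows a level of up to 0.790. The ratio of pericytes to other stromal cells was 3.22 in baboon, with a 95% counting interval of 0.613 to 10.9, and 0.404 in rhesus, with an interval of 0.0829 to 1.19. Both intervals held 1, and neither species passed the test (adjusted p = 0.756 and 0.840). These intervals and limits cover counting error only.

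Over the 10 members, 1 was higher in baboon pericytes than in other stromal cells and none was lower, against 0.562% of 12630 genes called higher and 0.0554% called lower. All 10 had a positive difference, with a median of 2.04 against -0.26 over all genes tested. With the animal as a block 7 members were higher and none was lower, against 2.31% and 1.19% of all genes. In rhesus 0 of 10 members passed in edgeR's test, against 0.404% of 11870 genes called higher and 0.0505% called lower. There, 6 members were higher at an unadjusted p under 0.05, 3 by DESeq2 and 6 with the block, the last against 2.67% of all genes called higher and 1.57% called lower. The unadjusted and DESeq2 counts have no share over all genes beside them and are not read as a result about the members. The rhesus median was 1.27, against -0.25 over all genes tested. All 10 members were tested in both species, and a filter on low counts removed none of them.

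**Figure D2:**
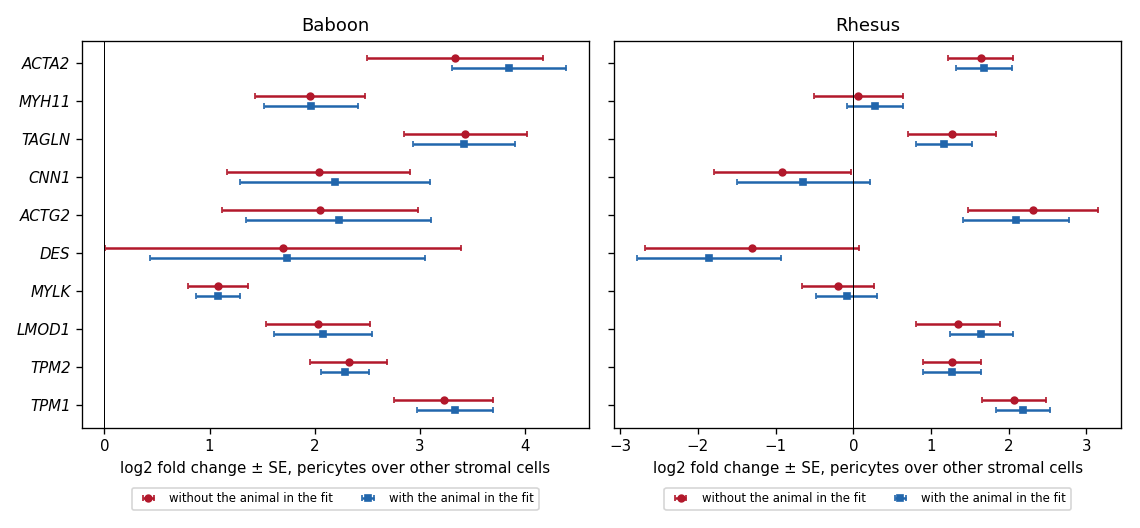
Log2 fold change of pericytes over other stromal cells for each member in each species, with bars of 1 SE, fitted without and with the animal as a block. All baboon values lie above 0 with 1.08 for MYLK as the lowest without the block, and CNN1, DES and MYLK of rhesus lie below 0.

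Against Sertoli cells, 8 members were higher in baboon pericytes, where 4.91% of all genes were called higher, and none was lower, where 1.04% were. DES and LMOD1 were the members that did not pass (adjusted p = 0.141 and 0.284). With the block 9 were higher, including DES, and none was lower, against 7.65% and 5.49% of all genes. In rhesus 6 members were higher, where 3.32% of all genes were called higher, and CNN1 was lower, where 2.48% were called lower. These counts were 6 and 1 with the block too, against 6.78% and 7.60% of all genes. Other stromal cells exceeded Sertoli cells in 6 members in baboon (ACTA2, ACTG2, MYH11, TAGLN, TPM1 and TPM2), against 10.4% of all genes called higher and 3.40% called lower, and in 4 members in rhesus (ACTA2, ACTG2, MYH11 and TPM2), against 7.82%. CNN1 was lower in other stromal cells than in Sertoli cells of rhesus by a log2 value of -2.57 (adjusted p = 0.00436), where 7.80% of all genes were called lower. With the block, other stromal cells were higher in 8 members and lower in 1 in baboon (20.2% and 16.8% of all genes), and higher in 6 and lower in 2 in rhesus (16.6% and 20.1%). With pericytes taken by cluster, 2 members were higher and 1 was lower in other stromal cells than in Sertoli cells of baboon. Over the main fit and its alternatives, 608 to 4666 of all genes tested were called there in either direction. The number by cluster alone is not given, so the counts by cluster are not read as a result about the members. The members that passed only with the block were CNN1, DES and LMOD1 in baboon and DES, LMOD1 and TAGLN in rhesus. Since the clusters that supply these classes were drawn from the other genes of the same cells, the comparisons with Sertoli cells describe the clusters as drawn.

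The members' UMIs were unevenly spread over the pericytes. In baboon, 27 of the 118 pericytes (22.9%) had 5 or more of the 10 members detected, and these cells held 84.8% of the members' UMIs in the class. Their summed level was 169.6, against 16.2 in the remaining 91 pericytes. A higher level and share of member UMIs follow in part from choosing cells by their detected members. The pericyte genes went the other way, with RGS5, a regulator of G protein signalling, at 27.3 in the former and 76.1 in the latter, and ABCC9, a channel subunit, at 0 and 1.81. The cells with 5 or more members were also deeper, with a median of 3773 against 1703 UMIs. The gate counted UMIs of these same pericyte genes, so a shallower cell needed a higher level of them to pass. The part of depth and of the gate in this split was not tested. In rhesus, 19 of 261 pericytes (7.28%) had 5 or more members and held 48.1% of the UMIs. In rhesus 1 a cell of the smooth muscle-like cluster alone held 88 of the 136 member UMIs of all 20 pericytes, and the summed level of 35.8 was 13.5 without it.

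**Figure D3:**
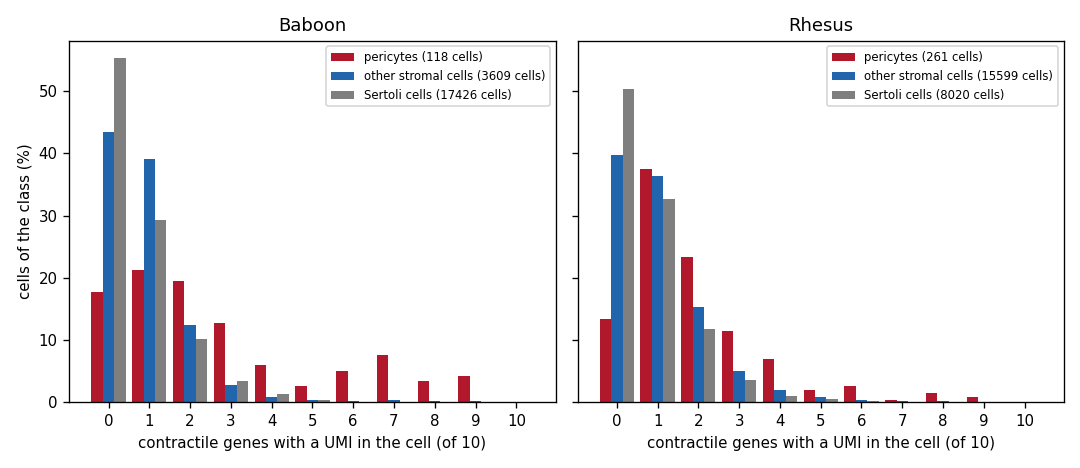
Percent of cells in which 0 to 10 of the members were detected, for each class and species. Most cells of every class hold 0 to 2 members, and the baboon pericytes also include cells with 6 to 9.

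The baboon pericyte-like cluster of 150 cells was split by pericyte UMIs instead. Cells with fewer than 2 pericyte UMIs (30 in baboon 1 and 14 in baboon 2) had the 10 members at a summed level of 230.3 and 202.5, with a median of 7 and 6.5 members per cell. Cells with 2 or more (65 and 41) had 57.0 and 90.7, with a median of 2 and 3 members. By the gate the former are other stromal cells, and these 44 of 3609 cells held 415 of the 427 ACTA2 UMIs of that class (97.2%). They also held 77.4% of its TAGLN UMIs but 27.2% of its MYH11 UMIs. The stroma-like cluster, which supplied the remaining cells, had ACTA2 at 0.0393 and 0.00980 in the 2 animals. The gap in ACTA2 between other stromal cells of the 2 baboons thus moved with the 30 and 14 cells of the pericyte-like cluster among them. When pericytes were defined as the whole cluster instead, 9 members were higher than in other stromal cells in baboon. Over the main fit and its alternatives, 12 to 448 of all genes tested were called in either direction in that comparison. The number under this definition alone is not given, so the 9 are not read as a result about the members. The cluster was drawn from other genes of the same cells and named from pericyte markers.

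In rhesus the contractile cells formed a smooth muscle-like cluster of their own, with 22 cells from rhesus 1 and 80 from rhesus 2. It had the 10 members at a summed level of 279.2 and 341.0, ACTA2 at 95.5 and 129.5, and RGS5 at 1.10 and 3.29. The pericyte-like cluster had summed levels of 10.8 and 18.1 and RGS5 at 7.53 and 26.5. RGS5 is among the markers that gave this cluster its name, so its high level there is not a separate result. The members took no part in the naming, and they were highest in the smooth muscle-like cluster. That cluster was named from other smooth muscle markers, which were not left out of the clustering. Its high level of the members is thus not a separate result either. In rhesus 1, 88 of the 103 pericyte-like cells had fewer than 2 pericyte UMIs, 72 of them none, against 44 and 13 of 264 in rhesus 2. Of the 102 smooth muscle-like cells 14 passed the pericyte gate, and the other 88 were counted among the other stromal cells, where they held 51.9% of the ACTA2 UMIs and 65.2% of the ACTG2 UMIs. With this cluster left out of both classes, which was chosen after seeing the data, the pericytes of rhesus 1 and rhesus 2 had summed levels of 13.5 and 16.1 and the other stromal cells 10.7 and 7.60. In edgeR 0 members then passed between pericytes and other stromal cells, with 3 higher and 1 lower at an unadjusted p under 0.05. These unadjusted counts have no share over all genes beside them.

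**Figure D4:**
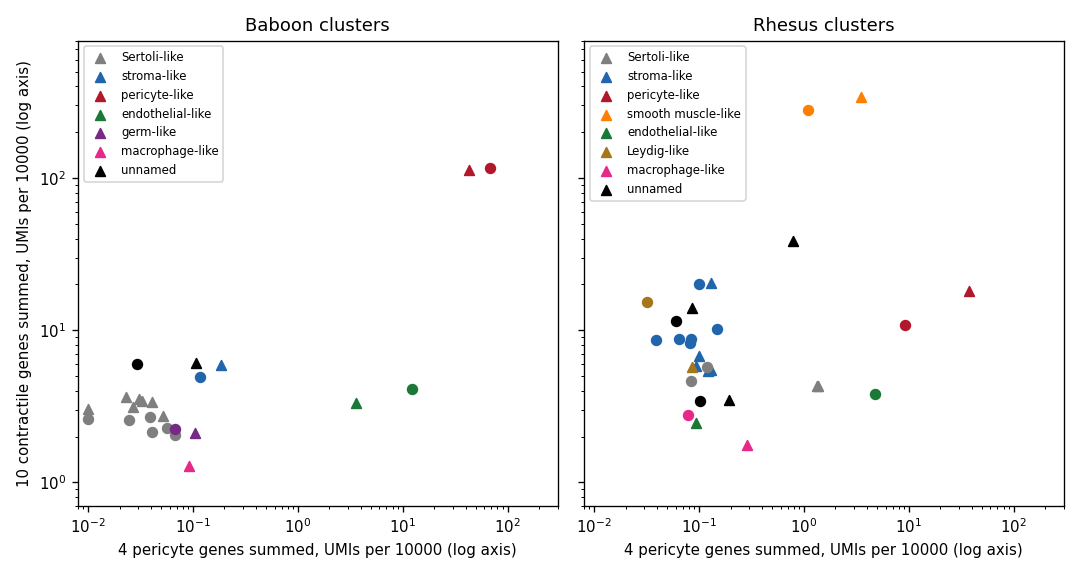
Summed level of the 10 members against that of the 4 pericyte genes (UMIs per 10000 UMIs, log axes) for each cluster and animal with at least 20 cells; circles are animal 1, triangles animal 2, and x values under 0.01 are drawn at 0.01. In baboon the pericyte-like cluster is highest on both axes, and in rhesus the smooth muscle-like cluster is highest for the members and the pericyte-like cluster for the pericyte genes. The pericyte genes are among the markers that named the pericyte-like clusters, and smooth muscle markers other than the members named the smooth muscle-like cluster.

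Another rhesus population carried the motor and actin genes at lower level. Cluster 4 was stroma-like, was led by HAPLN1 and WFDC1, and had 882 and 1053 cells. Its summed level was 20.1 and 20.5, with ACTA2 at 4.83 and 3.49, MYH11 at 5.50 and 4.73, and TAGLN at 3.24 and 7.03. RGS5 was at 0.0442 and 0.103 in it, near the level of the other stroma-like clusters. The cluster held 35.6% of the ACTA2 UMIs and 43.8% of the TAGLN UMIs of other stromal cells, but 9.41% of their DES UMIs. DES stood apart from the actins, with 85.4% of its UMIs over all rhesus cells in the stroma-like clusters and at higher level in rhesus 2 than in rhesus 1 among other stromal cells (0.253 and 0.0343).

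Some members had a large part of their UMIs outside the stroma, a share that also depends on how many UMIs each cluster supplied. In baboon, 93.5% of LMOD1 UMIs and 84.0% of MYLK UMIs came from Sertoli-like cells, which also made up most cells. These cells held 31174207 and 34941340 UMIs of all genes in the 2 baboons, against 2095199 and 4082011 in other stromal cells. The MYLK level of Sertoli cells (1.29 and 1.51) was not above that of other stromal cells (1.54 and 1.75), so its share is not read as a preference for Sertoli cells. In rhesus these shares were 52.8% and 35.4%, and CNN1 reached 75.2%. Rhesus Sertoli cells held 8567641 and 7913842 UMIs of all genes, against 9901871 and 14184024 in other stromal cells. The rhesus Leydig-like cluster, of steroid-producing cells, had MYLK at 7.44 and 2.41. The smooth muscle-like cluster had MYLK at 6.82 and 6.78, so the order of these clusters differed between the animals. ACTA2 was the member most confined to the pericyte-like cluster in baboon, with 90.1% of its UMIs there. Many of these UMIs lay in cells of that cluster with fewer than 2 pericyte UMIs, so this is not a share of pericytes.

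**Figure D5:**
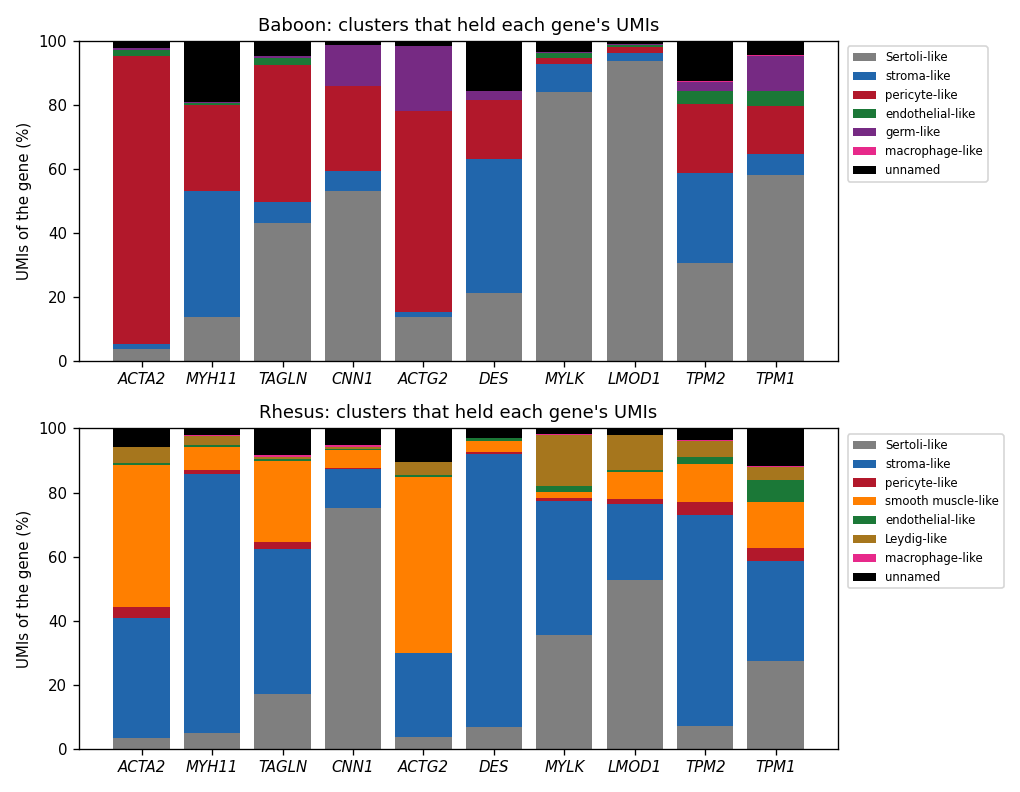
Share of each member's UMIs (percent, stacked) by the name of the cluster the cell belonged to, in each species. ACTA2 of baboon lies almost wholly in the pericyte-like cluster and DES of rhesus mostly in stroma-like cells. LMOD1 and MYLK of baboon lie mostly in Sertoli-like cells, which supplied most baboon UMIs.

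Shares of cells with at least 1 UMI were compared after each cell was thinned to 1000 UMIs, which left out 15 of 118 pericytes in baboon and 44 of 261 in rhesus. ACTA2 was then found in 28.2% of baboon pericytes (95% exact interval 19.7 to 37.9), in 1.17% of other stromal cells and in 0.0825% of Sertoli cells. Without thinning it was found in 28.8% of baboon pericytes. In rhesus the thinned shares were 16.1% (11.5 to 21.7), 4.76% and 0.980%. Most pericytes of either species thus had no ACTA2 UMI at this depth. These shares pool the cells of both animals, and their intervals cover counting error only, not the spread between animals. Before thinning, 241 of the 261 rhesus pericytes came from rhesus 2. The share was higher in pericytes than in other stromal cells in both animals for 8 members in baboon and 5 in rhesus. No such count over all genes is given beside these, and they are not read as a result about the members. DES was found in 0 of 103 thinned baboon pericytes, which allows a share of up to 2.91%.

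Members differed in how often they were found beside ACTA2. Of 82 baboon stromal cells with an ACTA2 UMI, 97.6% had TAGLN, 92.7% TPM2, 79.3% MYH11, 76.8% TPM1 and 70.7% MYLK. LMOD1 was found in 52.4% of them, CNN1 in 31.7%, ACTG2 in 29.3% and DES in 8.54%, and 57.3% had at least 1 pericyte UMI. Of 1010 rhesus cells with ACTA2, 59.1% had MYH11, 51.3% TAGLN, 48.6% TPM2, 38.0% MYLK, 25.4% TPM1 and 10.8% a pericyte UMI, and LMOD1, ACTG2, CNN1 and DES were found in 13.2% to 2.57%.

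Of 30 other genes of the contractile apparatus, 27 were tested in baboon and 3 were higher in pericytes than in other stromal cells: SMTN, a smoothelin (3.15 ± 0.46, adjusted p = 0.0472), ACTN1, an actinin that crosslinks actin (2.94 ± 0.44, adjusted p = 0.0472), and CSRP1, a LIM protein (2.30 ± 0.31, adjusted p = 0.0422). Of all genes, 0.562% were called higher in this comparison. With the block 12 of the list were higher, against 2.31% of all genes. The median difference of the list was 1.07 in baboon and 0.58 in rhesus, against -0.26 and -0.25 over all genes tested. In rhesus 0 of 25 passed in edgeR, where 7 were higher and 1 was lower at an unadjusted p under 0.05. By DESeq2 2 were higher and 1 was lower. With the block 4 were higher and 1 was lower, against 2.67% and 1.57% of all genes. For this list and the next, counts at an unadjusted p or by DESeq2 have no share over all genes beside them. MYOCD had a difference of 3.20 ± 1.25 in baboon (adjusted p = 0.387) and 2.43 ± 0.87 in rhesus (adjusted p = 0.420), and SRF one of 1.07 ± 0.65 in baboon (adjusted p = 0.570). Genes of this list took part in the clustering, unlike the members. Of 12 genes listed as nonmuscle counterparts, such as the actins ACTB and ACTG1 and the myosin MYH9, 9 were tested in each species and 0 passed in edgeR; at an unadjusted p under 0.05, 1 was higher and 2 were lower in baboon and 2 were higher in rhesus, and by DESeq2 0 and 1 were higher. With the block 1 was higher in baboon (TAGLN2) and 2 were higher in rhesus (TAGLN2 and MYH9), genes named here after their values were seen. The median differences of the list were 0.20 and 0.01.

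Across sums per animal and cluster, the genes whose level followed the summed members most closely were TMEM51, OAZ2, CDH6, PLAC9 and DSTN in baboon (Pearson's r 0.931 to 0.883 over 25 sums and 9427 genes). In rhesus they were FLNA, MYOCD, MSRB3, ZAK and MAP3K7CL (r 0.828 to 0.785 over 30 sums and 7898 genes). The sums share animals and libraries, and the values are descriptions. The 4 pericyte genes had r between 0.779 and 0.847 with the summed members in baboon, whereas in rhesus they had 0.33 for RGS5, 0.16 for KCNJ8, 0.0098 for ABCC9 and -0.0087 for HIGD1B.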

How the data were processed

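Testis cells of 2 baboons and 2 rhesus macaques were measured in 6 droplet libraries. The values used were the deposited counts of UMIs per gene and barcode, which the authors made with Cell Ranger 3.1.0 (per the submitters' notes, which also name Seurat 3.2.3) against Panubis1.0 for baboon and Mmul_10 for rhesus, without normalization. The matrices held all barcodes, empty droplets included. Intronic and strand settings of the counting are not given in the sources used here.

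Cells were called per library with a rebuilt rule: barcodes above the 99th percentile of the top 5000 divided by 10, plus barcodes with at least 500 UMIs whose profile differed from ambient droplets at a false discovery rate of 0.01. Libraries were integrated with Seurat 5.3.0 (SCTransform, 3000 features without the 10 members, 30 components) and clustered at resolution 0.5. Likely doublets were marked from simulated doublets, at 0.8% per 1000 cells, and kept unless stated. UMIs were summed per animal and class, giving 6 sums per species. edgeR 4.0.16 (quasi-likelihood test, TMM, filterByExpr, no covariate) was run on these sums in R 4.3.3, and p-values were adjusted by Benjamini-Hochberg over all genes tested, with a threshold of 0.05. The 2 animals of a species are the replicates. Each animal gave all 3 classes, and the classes of an animal deviated together: the correlation of deviations from the class means was 0.398, 0.401 and 0.709 over 8768 genes in baboon and 0.335, 0.209 and 0.596 over 5787 genes in rhesus. The fit with the animal as a block is given where it changed a call. In rhesus its p-values fell far more than its SEs. For TPM1 between pericytes and other stromal cells the SE went from 0.41 to 0.35, and the adjusted p from 0.0673 to 4.98e-08. With 6 sums from 2 animals, the size of such p-values should not be read as a measure of certainty. The test was checked on simulated counts.

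The genes named in the text were all 10 members, MYOCD and SRF, up to 4 other contractile genes past the threshold with the largest difference between pericytes and other stromal cells, and the 5 genes closest to the summed members in each species. The members and lists were chosen with earlier results of these data known. Alternatives tried were DESeq2 1.42.0, RLE size factors, no filter, the block, other pericyte gates and cluster resolutions, doublets or a replicate left out, a UMI cutoff alone, and, chosen after seeing the data, 2 ways of treating unnamed and smooth muscle-like clusters. Cells were not clustered again when doublets were left out or the UMI cutoff was used alone. Baboon promoters and member proteins were not used here. A further promoter result is not reported here.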

Additional observations from a re-analysis of the deposited data

Results flagged for a closer look

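The differences of CNN1 and DES had opposite signs in the species, and this was not tested because the gene models of the species differ. The log2 difference of CNN1 between pericytes and Sertoli cells was 4.83 in baboon and -3.48 in rhesus, and between other stromal cells and Sertoli cells it was 2.79 (not past the threshold, and past it with the animal as a block) and -2.57. Sertoli cells had the lowest CNN1 level of the 3 classes in both baboons and the highest in both rhesus macaques. DES had a log2 difference between pericytes and other stromal cells of 1.70 in baboon and -1.30 in rhesus, each resting on 3 pericyte UMIs and neither past the threshold.

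Members were also found in clusters that no comparison used. An unnamed baboon cluster led by INSL3 and STC1 had the 10 members at a summed level of 6.03 per 10000 UMIs. An unnamed rhesus cluster led by cell cycle genes such as TOP2A had 13.3. Another, led by LCN2 and PTGDS, had 37.6, with TAGLN at 21.0 and ACTA2 at 7.76, and 54 of its 56 cells came from rhesus 2. The levels in Sertoli cells, the comparison class, were 2.87 in baboon and 4.73 in rhesus. Other stromal cells had 8.96 and 11.2, and free RNA 3.51 to 5.54 in baboon and 5.50 to 5.95 in rhesus. The baboon cluster thus lay below other stromal cells and little above free RNA.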

How the results depend on the processing

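Resolutions of 0.3 and 0.8 and counting unnamed stroma-list clusters as stroma (added after seeing the data) left all 60 member results in their direction and on their side of the threshold. The number of members called between baboon pericytes and other stromal cells was 1, and became 7 with the animal as a replicate block and with DESeq2, 3 with endothelial-like cells in the fit, 6 without a filter on low counts, 9 with pericytes by cluster, 2 with RLE size factors, and 0 in edgeR with doublets left out, pericytes from 1 UMI or the UMI cutoff alone, where 7, 9 and 7 were higher at an unadjusted p under 0.05. In rhesus it was 0 (6 at an unadjusted p under 0.05), and became 6 with the block, 3 with DESeq2, and 1 without a filter, with RLE size factors, or with the smooth muscle-like cluster left out of other stromal cells. The number of all genes called in either direction moved over the settings too, from 12 to 448 in baboon and from 0 to 503 in rhesus. It is not given here for each setting, so the member counts describe the processing only. Between pericytes and Sertoli cells, rhesus gave 7, and 3 with pericytes by cluster or from 3 UMIs, and 4 with the smooth muscle-like cluster left out of both classes. Between other stromal and Sertoli cells, baboon gave 6 and, by cluster, 3 (2 higher and 1 lower), and rhesus gave 5 and, with the block, 8. All genes called over the settings numbered 490 to 1707 between pericytes and Sertoli cells of rhesus. Between other stromal and Sertoli cells they numbered 608 to 4666 in baboon and 1323 to 4351 in rhesus. Leaving out a library moved the baboon count between pericytes and other stromal cells from 1 to between 1 and 3, the 3 without library 1A. Without baboon 2 or rhesus 1 a species has 1 animal and no test. Members with a higher share in pericytes numbered 8 in baboon, and in rhesus 5 thinned and 8 without thinning, with no such count over all genes beside them.

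The values that changed sign were all in rhesus, and apart from ACTG2 against Sertoli cells none was past the threshold before or after. Between pericytes and other stromal cells MYH11 became -0.057 without doublets, -0.79 by cluster, -1.17 from 3 UMIs and -0.64 with the smooth muscle-like cluster out of both classes. ACTG2 became -8.52 by cluster, -0.46 from 3 UMIs and -0.029 with that cluster out of both. MYLK became 0.15 and CNN1 0.63 from 1 UMI, and MYLK lay between -0.26 and 0.0014 when a library was left out, the latter without rhesus 1. Against Sertoli cells LMOD1 in pericytes became -0.52 by cluster, -0.14 from 3 UMIs, -0.54 with that cluster out of both and lay between -0.057 and 0.96 when a library was left out, the former without library 2A, MYLK became 0.076 from 1 UMI and TPM1 in other stromal cells became -0.22 with that cluster left out, from that class or from both. ACTG2 was past the threshold in rhesus pericytes against Sertoli cells and became -4.74 by cluster, where the pericyte-like cluster held 0 of its UMIs, so that this value and -8.52 are set by the prior count and are no bounds. The cause of these changes was not tested. Depth limits DES, ACTG2 and CNN1, with 3 to 16 UMIs in the pericytes of a species.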
